A study of Homo sapiens with 6 samples.

Results

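The response to amino acid shortage and other cell stress that runs through the transcription factor ATF4 was described across 35 genes: ATF4, its family members and partners, its stress effectors, amino acid transporters, enzymes of serine, one-carbon and other amino acid synthesis, and a tRNA export factor. The genes were taken by symbol from a list of genes known for this pathway, drawn up with earlier results of these data known. All 35 had a row in the count table of 37887 rows, and 32 passed the filter on low counts, after which 15355 genes were tested. The 3 that did not pass were CBS, GDF15 and NUPR1.

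RNA-seq was done on MDA-MB-436 cells, an established human triple-negative breast cancer line, stably carrying a tetracycline-inducible shRNA vector against MUC1. The 3 control cultures received 0.1% DMSO as vehicle, and the 3 shMUC1 cultures received 500 ng/ml doxycycline, which induces the shRNA. All 6 libraries therefore came from cells with the same vector. Control titles name a control shRNA, but the treatment entries and the design text give vehicle on the inducible MUC1 shRNA cells, and these were followed. Cells with both doxycycline and a control shRNA were not analysed here, so MUC1 silencing and doxycycline itself cannot be told apart, and doxycycline is known to inhibit the mitochondrial ribosome. Neither the length of treatment for this line nor whether the line is 1 clone was found in the labels. The names of all 6 libraries carry the tag t8, whose meaning was not given in the sources used here. The libraries were described as triplicate cultures of 1 line, and p-values measure the spread between them.

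ATF4 is a basic leucine zipper transcription factor at the centre of the integrated stress response. Kinases that sense amino acid shortage, unfolded protein, viral RNA or heme loss phosphorylate the initiation factor eIF2alpha, which lowers general translation while the ATF4 mRNA, through its upstream open reading frames, is translated more. ATF4 protein, usually paired with a C/EBP factor, then binds C/EBP-ATF response elements and raises genes that import or make amino acids, charge tRNA and, under lasting stress, favour cell death. The level of the ATF4 mRNA is thus only a part of its control, and protein was not measured here.

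The letters of the response element are shown first, because ATF4 acts through them. Promoters from 250 bases before to 50 bases after the annotated start were read from RefSeq (GRCh38.p14) for 29 of the 35 genes. The genes SLC7A11, PSPH, SHMT2, ALDH1L2, NUPR1 and PYCR1 had no entry. Where a gene had more than 1 listed promoter, only the first was read. The shares over all promoters and over those of tested genes count every listed promoter, so the shares are not fully alike. The element was searched as TGATGNAA on both strands, and it was found in 5 of the 29 promoters (17.2%), compared with 3.62% of all 35116 promoters of that length and 2.05% of the 16341 promoters of tested genes. Because the genes were listed as known for this pathway, a higher share among them is not a separate test of the element. The stretches around the matches are printed 5′ to 3′ on the strand of the gene, with the element in capitals. In CHAC1 and SLC3A2 the element reads on the opposite strand.
ATF3, chr1:212565206-212565233, + strand: aaggtcaggaTGATGGAAggctgtcata
ASNS, chr7:97872459-97872486, - strand: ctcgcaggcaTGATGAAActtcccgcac
CHAC1, chr15:40953252-40953279, + strand: tcccctgccgTTGCATCActcctgccag
SLC3A2, chr11:62881726-62881748, + strand: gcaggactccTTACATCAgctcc
SLC7A1, chr13:29595664-29595691, - strand: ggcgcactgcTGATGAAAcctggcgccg
Relative to the start in RefSeq, the elements begin at -191 in ATF3, -68 in ASNS, -209 in CHAC1, 37 in SLC3A2 and 7 in SLC7A1. Those starts can differ from the ends of the gene positions given below, which come from GENCODE 29, so the 2 should not be combined. The cAMP response element, TGACGTCA, to which other ATF family proteins bind, was present in 1 of the 29 promoters (3.45%, against 1.85% of all promoters and 2.68% of those of tested genes), that of PPP1R15A, at -58.
PPP1R15A, chr19:48872353-48872380, + strand: cctctcttcgTGACGTCAgcacgccggg
The letters CCACG, a part of the ER stress element, were in 17 of the 29 (58.6%) and in 38.1% of all promoters and 46.9% of those of tested genes. No motif contains another. A match is a string of letters and not a measured site, and a promoter without one can hold the element outside this window. Of the 5 genes with the ATF4 element, 3 were higher in shMUC1 cells (ATF3, CHAC1 and SLC3A2), SLC7A1 was slightly lower, and ASNS did not pass the test. Of all tested genes, 25.2% were higher and 23.6% lower, and no difference between genes with and without the element was tested.

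Library totals ran from 18678307 to 27825546 counts. MUC1 fell from 93, 84 and 102 counts in the control libraries to 72, 51 and 34 in the shMUC1 libraries, a log2 fold change of -0.84 (SE 0.214, adjusted p = 0.00119), so the targeted transcript was lower and far from absent. Levels are given below as counts per 1000000 counts of a TMM-scaled library (CPM), and changes as log2 fold changes of shMUC1 over control from the quasi-likelihood test of edgeR, with Benjamini-Hochberg adjustment over all 15355 genes. The cells held the markers of this line in part: ESR1 was at 0.196 CPM in control and 0.363 CPM in shMUC1 cells in mean, PGR was at 0 in shMUC1 cells, and ERBB2 was at 44.7 ± 2.41 and 39.0 ± 0.463 CPM (SD, n = 3). Of 4 mesenchymal markers, VIM, ZEB1 and CDH2 fell and FN1 rose, and their summed level was 1844 to 1875 CPM in control and 1822 to 1868 CPM in shMUC1 libraries. The summed level of 6 luminal epithelial markers was 3.28 to 4.48 CPM in control and 19.8 to 21.4 CPM in shMUC1 libraries. Of those 6, EPCAM and CDH1 were tested and were higher, and KRT19, GRHL2 and RAB25 were at 0 in every shMUC1 library. The 5 leukocyte and endothelial markers summed to at most 2.38 CPM in any library. The part of these shifts in the results that follow was not tested, and in bulk RNA a change in every cell cannot be told apart from a change in the share of cells.

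To determine whether the ATF4 programme was altered when MUC1 was silenced, the 35 genes were read from the fit over all genes. The programme did not move one way. Of the 32 tested genes, 14 rose (43.8%) and 10 fell (31.2%) at an adjusted p under 0.05, whereas 25.2% of all tested genes rose and 23.6% fell. With a fold change over 2 as well, 2 rose, CHAC1 and DDIT4, and 0 fell, against 2.21% and 3.74% of all tested genes. Without control replicate 2 only CHAC1 remained past that fold, since DDIT4 stood at 0.99, and without control replicate 3 or shMUC1 replicate 3 ATF5 fell by more than that fold, at -1.03 and -1.06. Groups did not overlap in CPM for 15 genes that were higher and 10 that were lower in shMUC1 cells, compared with 28.1% and 26.8% of all tested genes. The median log2 fold change of the 32 genes was 0.12 and that of all tested genes 0.00058. As a check by library, the median of the 32 genes relative to the control mean was between -0.012 and 0.012 in the control libraries and was 0.085, 0.17 and 0.11 in the shMUC1 libraries.

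**Figure D1:**
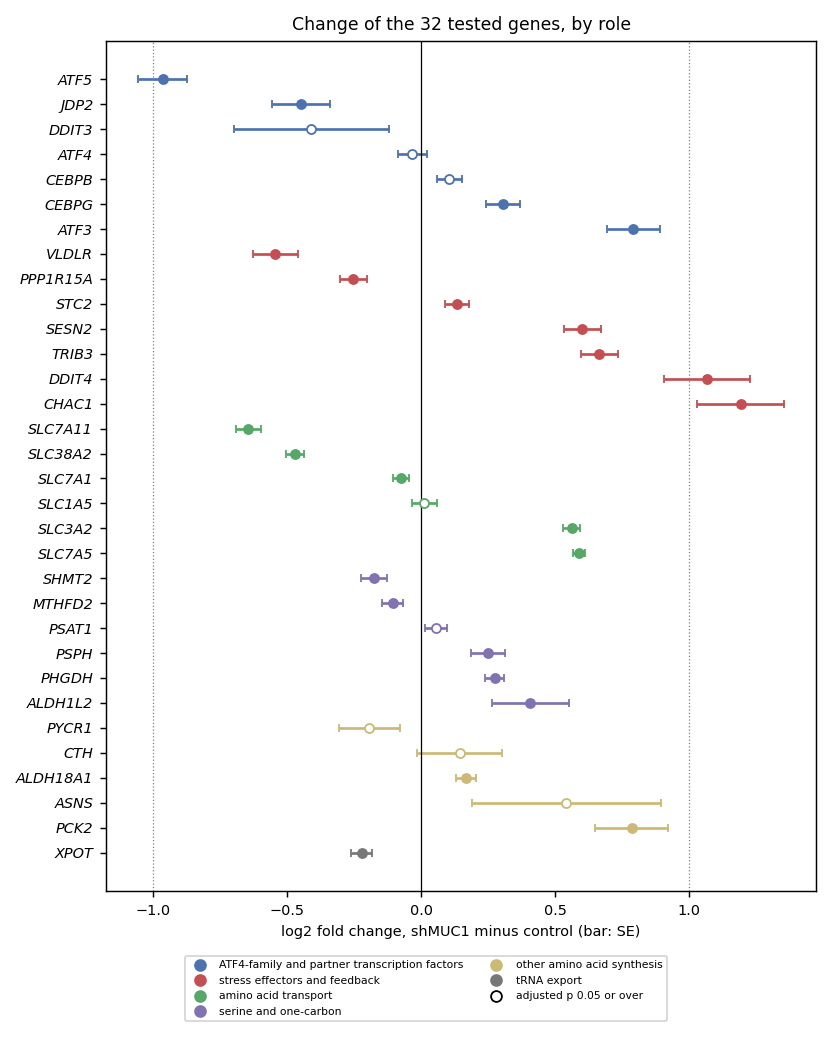
Log2 fold change of shMUC1 over control (x axis) for each of the 32 tested genes (y axis), grouped by role, with the standard error as bars; filled points had an adjusted p under 0.05 and dotted lines mark a fold change of 2. Stress effectors hold the largest rises, CHAC1 at 1.19 and DDIT4 at 1.07, ATF5 holds the largest fall at -0.97, and ATF4 sits next to 0.

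**Figure D2:**
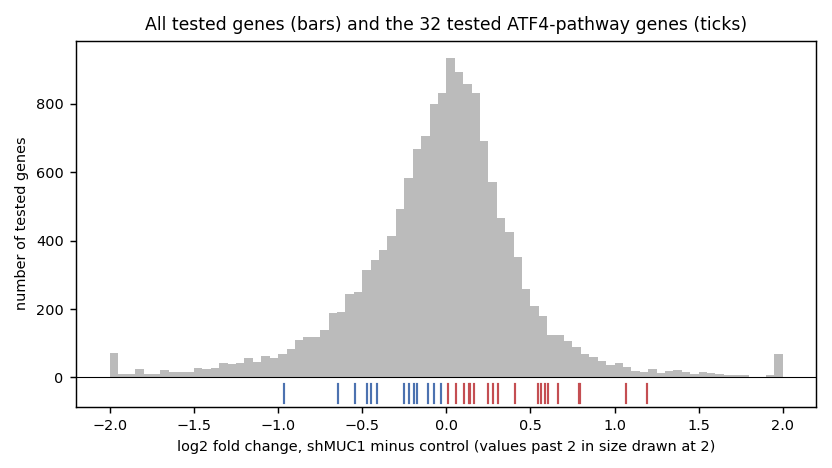
Histogram of log2 fold changes of all 15355 tested genes (x axis; y axis, number of genes), with the 32 tested genes of the ATF4 programme as ticks under it, red where higher and blue where lower in shMUC1 cells. The ticks lie from -0.97 to 1.19, on both sides of 0 and within the spread of all tested genes.

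The ATF4 mRNA (chr22:39519695-39522685, + strand, GENCODE 29 on GRCh38, as for all gene positions below) did not pass the test. It was at 85.2, 73.7 and 77.4 CPM in the control libraries and 82.8, 77.0 and 70.2 CPM in the shMUC1 libraries, and the groups overlapped. The means were 78.8 ± 5.89 and 76.7 ± 6.33 CPM (SD, n = 3), with a log2 fold change of -0.033 (SE 0.0548, 95% interval -0.14 to 0.079, adjusted p = 0.659). The sign depended on single libraries, at 0.028 without control replicate 1 and 0.027 without shMUC1 replicate 3. Counts on the processed copies ATF4P3 and ATF4P4 came to 0.917% and 0.107% of those on the gene and the copy.

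Among the other 7 transcription factors, ATF3 and CEBPG rose, ATF5 and JDP2 fell, CEBPB and DDIT3 did not pass the test and NUPR1 was not tested. ATF3 (chr1:212565334-212620777, + strand), a stress-induced ATF family protein that can repress as well as activate, was at 12.9, 11.1 and 11.1 CPM in control libraries and 19.4, 22.2 and 19.0 CPM in shMUC1 libraries. All 3 shMUC1 libraries were above all controls, with a log2 fold change of 0.79 (SE 0.0988, adjusted p = 1.59e-08). ATF5 (chr19:49928702-49933935, + strand), which is translated under stress by a mechanism like that of ATF4 and is known for the mitochondrial stress response, went the other way. It was at 29.4, 31.4 and 27.1 CPM in control libraries and 14.9, 13.1 and 17.4 CPM in shMUC1 libraries. The groups were far apart, and ATF5 fell by 0.97 on the log2 scale (SE 0.0912, adjusted p = 2.58e-11). ATF5 overlaps NUP62 and IL4I1 on the opposite strand and MIR4751 on its own.

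JDP2, a repressor that competes at AP-1 and related sites, fell from 15.1 ± 1.16 to 11.1 ± 1.40 CPM (SD, n = 3), a log2 fold change of -0.45 (adjusted p = 7.58e-04). CEBPG, a C/EBP factor that pairs with ATF4, rose from 34.2 ± 0.297 to 42.2 ± 2.23 CPM (SD, n = 3), by 0.30 on the log2 scale (adjusted p = 1.29e-04). The other C/EBP partner, CEBPB, had 90.1 ± 3.55 and 97.0 ± 4.59 CPM (SD, n = 3), a log2 fold change of 0.11 with an adjusted p of 0.0544. So CEBPG rose and JDP2 fell beside an ATF4 mRNA with no detected change, and CEBPB did not pass the test. DDIT3, which encodes CHOP, the factor linked to death under lasting ER stress, was low: 37, 59 and 50 counts in control libraries and 46, 26 and 36 counts in shMUC1 libraries. These groups overlapped, with a log2 fold change of -0.41 (SE 0.29, adjusted p = 0.253) and a 95% interval from -1.0 to 0.18. DDIT3 overlaps AC022506.1 on its own strand and MARS and MBD6 on the opposite strand, so its level is uncertain. NUPR1, a small stress-induced chromatin protein, had only 1, 2 and 4 counts with vehicle and 13, 4 and 0 with doxycycline, too few to test.

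**Figure D3:**
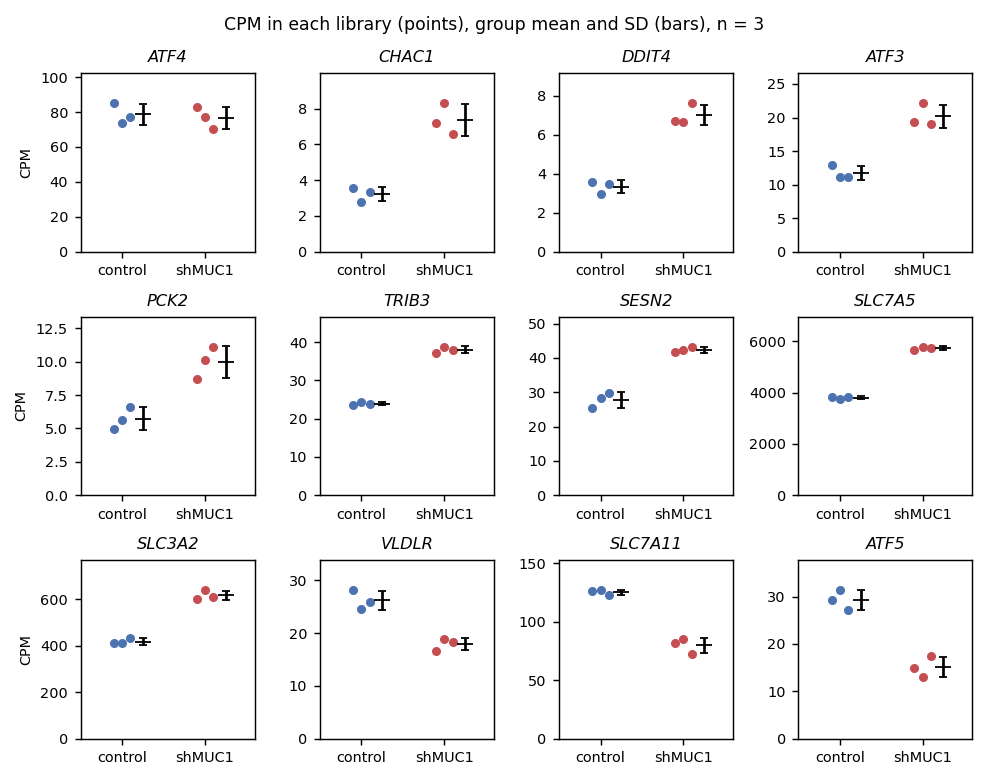
CPM (y axis, from 0) in each control and shMUC1 library (points), with the group mean and SD as bars (n = 3), for ATF4 and the 11 genes with an adjusted p under 0.05 and a log2 fold change of at least 0.5 in size. The ATF4 groups overlap between 73.7 and 82.8 CPM, and the groups of the other 11 genes do not overlap.

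Among the roles, the stress effectors had the highest median log2 fold change, 0.60. Of their 7 tested genes, 5 rose (71.4%, against 25.2% of all tested genes) and 2 fell (28.6%, against 23.6%). CHAC1 (chr15:40952962-40956519, + strand), a glutathione-degrading enzyme and a widely used readout of ATF4, was at 3.56, 2.79 and 3.33 CPM in control libraries and 7.17, 8.31 and 6.56 CPM in shMUC1 libraries. DDIT4 (chr10:72273920-72276036, + strand), an inhibitor of mTORC1 also known as REDD1, was at 3.56, 2.96 and 3.49 CPM in control libraries and 6.73, 6.68 and 7.63 CPM in shMUC1 libraries. Both were low in level and had no overlap between groups. The rise of CHAC1 was 1.19 on the log2 scale (SE 0.162, adjusted p = 9.83e-08), or 2.29-fold, and that of DDIT4 was 1.07 (SE 0.16, adjusted p = 6.60e-07), or 2.10-fold.

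TRIB3 (chr20:362835-397559, + strand), a pseudokinase that feeds back on ATF4 and CHOP, was at 23.6, 24.4 and 23.9 CPM in control libraries and 37.1, 38.8 and 38.0 CPM in shMUC1 libraries. SESN2 (chr1:28259527-28282491, + strand), a leucine sensor that restrains mTORC1, was at 25.3, 28.3 and 29.9 CPM in control libraries and 41.6, 42.2 and 43.3 CPM in shMUC1 libraries. The libraries of each group lay close together in both genes. The log2 fold changes were 0.66 for TRIB3 (SE 0.069, adjusted p = 2.59e-10) and 0.60 for SESN2 (SE 0.0688, adjusted p = 2.34e-09). The secreted glycoprotein STC2 rose by 0.13 (adjusted p = 0.00969), from 88.3 ± 0.858 to 96.9 ± 2.72 CPM (SD, n = 3), and its adjusted p was 0.0533 without shMUC1 replicate 2.

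The effectors that fell were VLDLR and PPP1R15A. VLDLR (chr9:2621834-2660053, + strand), a lipoprotein receptor induced by ATF4 under ER stress, was at 28.1, 24.6 and 25.8 CPM in control libraries and 16.7, 19.0 and 18.3 CPM in shMUC1 libraries. Every shMUC1 library was below every control, with a log2 fold change of -0.54 (SE 0.0841, adjusted p = 1.10e-06). PPP1R15A, also called GADD34, which brings a phosphatase to eIF2alpha and so ends the response, fell from 72.2 ± 3.46 to 60.5 ± 0.147 CPM (SD, n = 3), by 0.25 on the log2 scale (adjusted p = 6.21e-05). The stress cytokine GDF15 had 14, 0 and 4 counts with vehicle and 19, 9 and 6 with doxycycline, and was not tested. A count of 0 allows up to 3 counts, which was 0.109 to 0.161 CPM in these libraries.

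**Figure D4:**
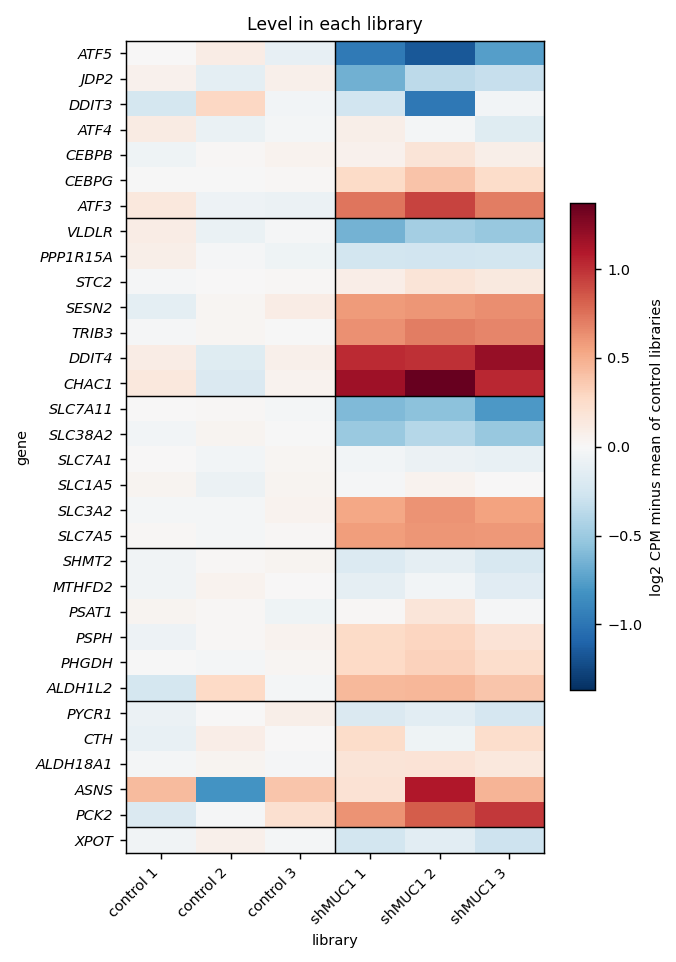
Log2 CPM of each of the 32 tested genes (rows, ordered by role and fold change) in each library (columns), minus the mean over the control libraries, in colour from blue (lower) to red (higher). CHAC1 and DDIT4 are red and ATF5 is blue in all 3 shMUC1 libraries, whereas ASNS varies as much within a group as between groups.

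Amino acid transporters were divided. SLC7A5 (chr16:87830023-87869488, - strand), also called LAT1, imports leucine and other large neutral amino acids, and it was the most abundant of the 35 genes per length of annotated exons. It was at 3850, 3739 and 3839 CPM in control libraries and 5659, 5802 and 5734 CPM in shMUC1 libraries. Its heavy chain SLC3A2 (chr11:62856102-62888875, + strand), known as CD98, was at 410.7, 409.4 and 433.1 CPM in control libraries and 601.2, 639.0 and 610.3 CPM in shMUC1 libraries. Both chains of the leucine transporter rose, by 0.59 for SLC7A5 (SE 0.0229, adjusted p = 3.23e-22) and 0.56 for SLC3A2 (SE 0.0318, adjusted p = 2.37e-17) on the log2 scale.

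SLC7A11 (chr4:138164097-138242349, - strand), or xCT, uses the same heavy chain to import cystine for glutathione, and it fell. It was at 126.0, 127.1 and 122.8 CPM in control libraries and 82.3, 84.8 and 72.4 CPM in shMUC1 libraries. The groups did not overlap, and the log2 fold change was -0.65 (SE 0.047, adjusted p = 2.74e-14). SLC38A2, also called SNAT2, a sodium-coupled importer of small neutral amino acids induced by amino acid shortage, fell from 548 ± 13.8 to 395 ± 19.0 CPM (SD, n = 3), by 0.47 on the log2 scale (adjusted p = 1.20e-14). Thus the cystine importer and a neutral amino acid importer went down while the leucine importer went up in the same libraries. SLC7A1, the CAT1 carrier of arginine and lysine, fell by 0.075 (adjusted p = 0.0370), from 577 ± 13.2 to 548 ± 12.1 CPM (SD, n = 3). That small fall was not under 0.05 without control replicate 1 (0.104), shMUC1 replicate 2 (0.0833) or shMUC1 replicate 3 (0.186). SLC1A5, or ASCT2, a glutamine carrier, had a log2 fold change of 0.012 (95% interval -0.081 to 0.10, adjusted p = 0.856), at 86.8 ± 3.94 and 87.5 ± 1.83 CPM (SD, n = 3).

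Of the 3 enzymes of serine synthesis, PHGDH and PSPH rose and PSAT1 did not pass the test. PHGDH, the first enzyme of the pathway from 3-phosphoglycerate, rose from 175 ± 3.51 to 212 ± 4.89 CPM (SD, n = 3), by 0.28 on the log2 scale (adjusted p = 3.69e-08), and PSPH, the last, rose from 34.9 ± 1.48 to 41.4 ± 1.5 CPM (SD, n = 3), by 0.25 (adjusted p = 0.00126). PSAT1, the enzyme between them, was at 187 ± 6.85 and 194 ± 13.3 CPM (SD, n = 3), with a log2 fold change of 0.057 (95% interval -0.026 to 0.14, adjusted p = 0.265).

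Of the mitochondrial one-carbon enzymes, SHMT2 and MTHFD2 fell and ALDH1L2 rose. SHMT2, which splits serine to glycine, fell from 75.1 ± 2.30 to 66.4 ± 2.35 CPM (SD, n = 3), by 0.18 on the log2 scale (adjusted p = 0.00289). MTHFD2, which oxidises methylene-tetrahydrofolate, went from 149 ± 4.68 to 139 ± 5.94 CPM (SD, n = 3), a log2 fold change of -0.11 (adjusted p = 0.0263), with overlap between the groups. Its adjusted p was 0.124 without control replicate 2, 0.115 without shMUC1 replicate 1 and 0.159 without shMUC1 replicate 3. ALDH1L2, a formyl-tetrahydrofolate dehydrogenase, rose from 5.80 ± 1.06 to 7.70 ± 0.199 CPM (SD, n = 3), by 0.41 (adjusted p = 0.0169), and lost that call without control replicate 1 (adjusted p = 0.109) or control replicate 3 (adjusted p = 0.0571).

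Of the other synthesis genes, PCK2 and ALDH18A1 rose, ASNS, CTH and PYCR1 did not pass the test and CBS was not tested. PCK2 (chr14:24094053-24110598, + strand), the mitochondrial phosphoenolpyruvate carboxykinase, was at 4.97, 5.63 and 6.62 CPM in control libraries and 8.72, 10.1 and 11.1 CPM in shMUC1 libraries. The highest control library was below the lowest shMUC1 library, and the log2 fold change was 0.79 (SE 0.137, adjusted p = 8.07e-06). ALDH18A1, which makes the precursor of proline and ornithine, rose from 140 ± 3.21 to 158 ± 2.65 CPM (SD, n = 3), by 0.17 (adjusted p = 3.23e-04). PYCR1, the next enzyme of proline synthesis, had a log2 fold change of -0.19 (adjusted p = 0.167), and CTH, which makes cysteine from cystathionine, had 0.14 (adjusted p = 0.481).

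ASNS, asparagine synthetase and among the best known ATF4 targets, had low counts in this line. It had 30, 14 and 34 counts with vehicle and 32, 56 and 26 counts with doxycycline, or 0.995 ± 0.414 TPM in control cells (SD, n = 3). The groups overlapped, with a log2 fold change of 0.54 (SE 0.353, adjusted p = 0.212) and a 95% interval from -0.17 to 1.26, and leaving out single libraries moved it from 0.23 to 0.74. No change in ASNS was detected. ASNS overlaps AC079781.5 on its own strand in the annotation. Reads on shared bases may not have been assigned to ASNS, so its level is uncertain. CBS, which makes cystathionine, had 0 counts in all 6 libraries, but the near-identical copy CBSL had 25, 26 and 20 counts with vehicle and 47, 38 and 16 with doxycycline. Reads of the pair may have been assigned to 1 copy, so the level of CBS is uncertain. CBSL was looked up after the values were seen. XPOT, which exports tRNA from the nucleus, fell from 208 ± 8.89 to 178 ± 9.12 CPM (SD, n = 3), by 0.22 on the log2 scale (adjusted p = 1.16e-05).

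Levels of different genes were compared per length of the exons in GENCODE 29, as TPM, in which counts per base are scaled to the same sum in each library. The length was that of all annotated exons of a gene joined, which can exceed that of the transcript expressed. The order of genes below is therefore approximate. In control cells SLC7A5 was at 3263 ± 98.2 TPM (SD, n = 3), and PSAT1, SLC38A2, SLC3A2 and SLC7A1 followed at 347 ± 9.33, 337 ± 6.68, 328 ± 15.3 and 305 ± 11.8 TPM. PSAT1, SLC38A2 and SLC3A2 did not differ beyond their spread. ATF4 was eighth at 127 ± 10.2 TPM, next to MTHFD2 at 125 ± 3.53 TPM. In shMUC1 cells SLC3A2 stood second at 456 ± 12.6 TPM, and SLC38A2 dropped to the fifth place at 229 ± 10.2 TPM. The genes with the largest fold changes were far down this order, with CHAC1 at 6.38 ± 0.839 and DDIT4 at 6.59 ± 0.727 TPM in control cells. Among the programme's genes, 13 overlap a gene on the opposite strand in the annotation, ATF5, DDIT3, DDIT4, SLC7A11, SLC7A5 and VLDLR among them. Whether counting used strand was not given in the sources used here. On their own strand, 4 genes of the programme overlap another gene: ATF5, DDIT3, ASNS and PYCR1. Reads on shared bases may not have been counted for these genes.

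Genes upstream of ATF4 and other genes around the pathway were read from lists of their own. Of 17 kinases, subunits and regulators of the eIF2 machinery, 10 rose (58.8%) and 1 fell (5.88%). Of all tested genes, 25.2% rose and 23.6% fell. The median log2 fold change of the 17 genes was 0.14. The largest rises were those of OMA1, a mitochondrial protease that relays stress to the response (0.36, adjusted p = 1.64e-04), EIF2AK2, the RNA-activated kinase PKR (0.35, adjusted p = 8.91e-11), PPP1R15B, the constitutive partner of the eIF2alpha phosphatase (0.33, adjusted p = 9.70e-10), and EIF2B5, a subunit of the exchange factor eIF2B (0.30, adjusted p = 1.83e-04). All were small, and the list mixes genes that promote and genes that end the response. Phosphorylation of eIF2alpha was not measured here.

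Other genes described as ATF4 or CHOP targets were mixed as well, with 7 of 17 tested genes higher (41.2%) and 3 lower (17.6%). Over all tested genes, 25.2% were higher and 23.6% lower. UPP1, a uridine phosphorylase, rose from 25.5 ± 0.958 to 65.4 ± 1.98 CPM (SD, n = 3), by 1.36 on the log2 scale (adjusted p = 2.04e-20), and TXNIP, an inhibitor of thioredoxin and glucose uptake, rose by 1.15 (adjusted p = 3.56e-17). In the opposite direction, SLC43A1, the LAT3 amino acid carrier, fell by 1.97 (adjusted p = 8.17e-10), and MAP1LC3B, the autophagosome protein LC3B, fell by 0.93 (adjusted p = 2.46e-21). Of 20 cytosolic aminoacyl-tRNA synthetases, 14 rose (70%) and 4 fell (20%), with a median log2 fold change of 0.16. AARS and CARS, which charge tRNA with alanine and cysteine, rose by 0.54 (adjusted p = 2.29e-14) and 0.33 (adjusted p = 1.40e-04), whereas WARS and DARS, for tryptophan and aspartate, fell by 1.23 (adjusted p = 4.23e-21) and 1.18 (adjusted p = 1.50e-19).

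Of the other amino acid transporters, 3 of 12 tested genes were higher (25%, against 25.2% of all tested genes) and 5 lower (41.7%, against 23.6%). The falls included SLC7A2, a cationic amino acid carrier (-0.96, adjusted p = 3.92e-12), SLC6A6, the taurine carrier (-0.77, adjusted p = 9.56e-15), the lysosomal SLC36A1 (-0.57, adjusted p = 4.92e-09) and SLC16A10 (-0.53, adjusted p = 2.25e-04), which carries aromatic amino acids. Among 13 other serine, glycine and folate genes counted here 3 rose and 2 fell, against 25.2% and 23.6% of all tested genes. SFXN1, which carries serine into mitochondria, fell by 0.80 (adjusted p = 5.84e-20) and GLDC, of the glycine cleavage system, fell by 0.69 (adjusted p = 1.01e-08), while the folate enzyme MTHFD2L rose by 0.35 (adjusted p = 4.98e-05). Of 9 other proline, arginine, glutamine and aspartate genes, 4 rose (44.4%, against 25.2% of all tested genes) and 2 fell (22.2%, against 23.6%). GOT1 and GOT2, the aspartate aminotransferases, rose by 0.77 (adjusted p = 5.00e-15) and 0.29 (adjusted p = 2.82e-08), and GLUL, glutamine synthetase, fell by 0.43 (adjusted p = 1.45e-11).

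**Figure D5:**
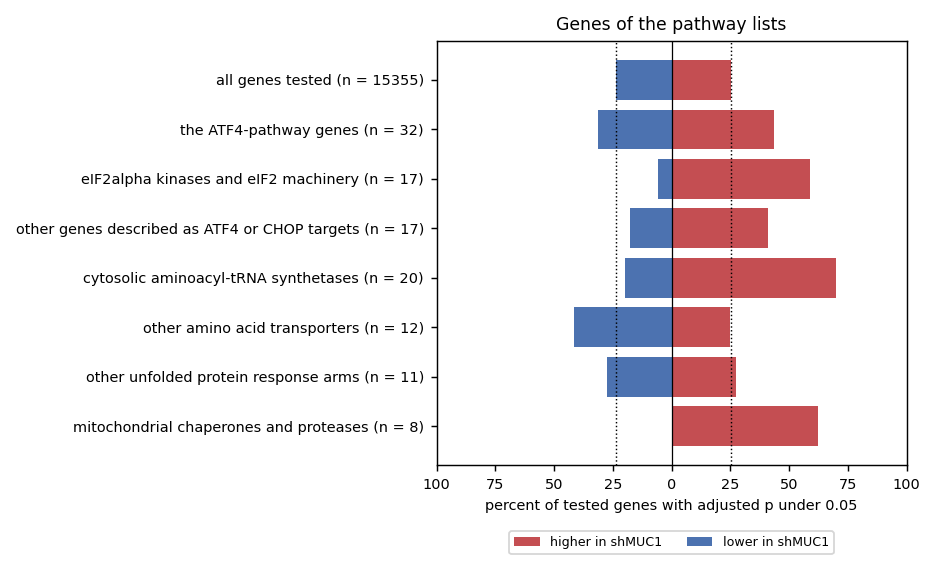
Percent of the tested genes of each of the lists shown (y axis, with the number tested) that were higher (red, to the right) or lower (blue, to the left) in shMUC1 cells at an adjusted p under 0.05; dotted lines mark the percent over all 15355 tested genes, 25.2 higher and 23.6 lower. The ATF4 programme holds 43.8% higher and 31.2% lower genes, and the aminoacyl-tRNA synthetases hold 70% higher and 20% lower genes.

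Genes of the neighbouring stress pathways were set beside these. The other arms of the unfolded protein response had 3 genes higher and 3 lower of 11 (27.3% each), close to the shares over all tested genes. The largest changes of that list were falls of HSP90B1 by 0.42 (adjusted p = 5.70e-14), ERN1 by 0.39 (adjusted p = 7.96e-04) and SEL1L by 0.38 (adjusted p = 1.20e-10) and a rise of ATF6 by 0.30 (adjusted p = 4.00e-06). Among the 6 targets of NRF2 counted here, the regulator of antioxidant genes that also drives SLC7A11, 5 fell (83.3%, against 23.6% of all tested genes). HMOX1 fell from 32.3 ± 0.751 to 12.3 ± 1.81 CPM (SD, n = 3), by 1.38 on the log2 scale (adjusted p = 1.22e-15), TXNRD1 fell by 0.62 (adjusted p = 3.87e-19) and NQO1 fell by 0.52 (adjusted p = 1.02e-14).

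Mitochondrial readouts moved with the group. All 13 mitochondrially encoded mRNAs were higher in shMUC1 cells, against 25.2% of all tested genes, with a median log2 fold change of 0.45. Their share of counts was 3.74% ± 0.413 in control and 5.10% ± 0.139 in shMUC1 libraries (SD, n = 3). The ranges, 3.35% to 4.17% and 4.94% to 5.22%, did not overlap, and the exact two-sided permutation p of 0.1 is the smallest that 3 against 3 libraries can give. Of 8 mitochondrial chaperones and proteases, 5 rose (62.5%) and 0 fell, against 25.2% and 23.6% of all tested genes. The rises were small and were led by CLPP (0.28, adjusted p = 0.0131) and HSPE1 (0.25, adjusted p = 1.04e-05). With the mitochondrially encoded genes left out of the fit, 14 genes of the ATF4 programme rose and 10 fell. The part of the mitochondrial shift, and of doxycycline, in the ATF4 programme was not tested.

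The 3′ untranslated regions were read for the word ATCAGTA, which earlier results of these data had tied to lower expression across genes. Over 13032 tested genes with an annotated 3′ untranslated region, the 1874 with the word had a median log2 fold change of -0.11 and the others 0.028. Of the 1874, 789 fell, as did 2470 of the others, and 23.6% of all tested genes fell. Because the word came from these same data, this difference is not a separate test of it. The word was in 3 of the 32 tested genes (9.38%), MTHFD2, CEBPG and XPOT, and in 14.4% of those 13032 genes. MTHFD2 and XPOT fell and CEBPG rose. The word was absent from the other 8 genes that fell, ATF5, SLC7A11, VLDLR, SLC38A2 and JDP2 among them.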

How the data were processed

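Poly(A) RNA of 6 cultures was sequenced from TruSeq Stranded mRNA libraries. The deposited table, made by the authors, gives raw counts for each gene symbol in 1 column per library, with no pooling. The submitters' processing notes name CASAVA 1.8.2, STAR 2.7.9a, featureCounts and DESeq2 1.24.0 with the genome build GRCh38.p7, and the strand setting and annotation release were not given in the sources used here. Among values from 1 to 20 counts 69.9% were even, as when both reads of a pair are counted, so halved counts were also tried.

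Counts were tested in R 4.3.3 with edgeR 4.0.16 (quasi-likelihood test, TMM scaling, filterByExpr, group as the only term, two-sided, Benjamini-Hochberg over 15355 genes). Calls were made at an adjusted p under 0.05, and also with a fold change over 2. Standard errors came from the quasi-likelihood F statistic. Alternatives used DESeq2 1.42.0, limma-voom (limma 3.58.1), other scalings and filters, a replicate block, each library left out and a fold change over 1.5. The share of mitochondrially encoded counts was compared by an exact permutation test. On data simulated for this comparison over 15134 genes, edgeR recovered 76.6%, 82.5% and 93.9% of genes changed by 0.5, 1 and 2 on the log2 scale, with 8 false calls. Only 64, 63 and 66 of those genes were changed by these sizes, a far smaller share than was called in the data. The recovery and false calls hold for that setting only.

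Totals ran from 18678307 to 27825546 counts. Without molecular identifiers, floors cover only the error of counting. Chi-square per degree of freedom was 2.79 to 5.55 between libraries of a group. Counting both reads of a pair would itself raise this value, so it does not settle whether any library was a duplicate. All 6 were kept as separate cultures. Lengths, gene positions, overlaps and 3′ untranslated regions came from GENCODE 29 (GRCh38), and promoters from RefSeq (GRCh38.p14). The genes and the lists were chosen with earlier results of these data known, and the lists were written from general knowledge. Some genes of the other lists are not reported here, so counts over the serine, glycine and folate, the proline, arginine, glutamine and aspartate, and the NRF2 lists are not of the full lists and their split of higher against lower genes is incomplete. Per-library values are given for ATF4, for genes with an adjusted p under 0.05 and a log2 fold change of at least 0.5 in size, and for untested genes. In the other pathway lists at most 4 genes are named, those with the largest change at an adjusted p under 0.05.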

Additional observations from a re-analysis of the deposited data

How the results depend on the processing

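Each of the 32 tested genes was refitted under 15 alternatives. Of 478 values, 457 stayed on the same side of 0 and of the threshold, 11 kept the direction and lost an adjusted p under 0.05, 4 kept the direction and gained it, and 6 changed sign. The losses were in SLC7A1, MTHFD2, ALDH1L2 and STC2 and the gains in CEBPB. The sign changes were in genes that did not pass the test: ATF4 ran from -0.091 to 0.028 with single libraries left out (0.028 without control replicate 1, 0.027 without shMUC1 replicate 3), and SLC1A5 was -0.011 with library totals only or a minimum mean of 50 counts, and ran from -0.025 to 0.032 with single libraries left out (-0.025 without control replicate 2, -0.0025 without shMUC1 replicate 2). SLC7A1 and MTHFD2 had an adjusted p of 0.0938 and 0.0566 with no low-count filter. Genes of the programme that rose numbered 13 to 15 and those that fell 8 to 10 over all alternatives.

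Under a fold change over 1.5, 7 genes of the programme rose and 2 fell, and among all genes 846 rose and 1280 fell. A minimum mean of 50 counts gave 177 genes that rose and 275 that fell past a fold change of 2. With single libraries left out, 1 to 2 genes of the programme rose and 0 to 1 fell past a fold change of 2, and the median of the programme ran from 0.0895 to 0.137. That median was 0.15 with no low-count filter, where GDF15 and NUPR1 were fitted as well, so the set of genes was not the same. The causes were not tested. Same-numbered libraries of the groups had correlations of 0.0049, -0.032 and -0.038, and 0 of 3 correlated best with its own number, so the numbers do not pair them. With a replicate block, 15 genes of the programme rose and 10 fell, with a median of 0.12, and CEBPB had an adjusted p of 0.0422. Counts were lowest for ASNS, DDIT3, GDF15, NUPR1 and CBS, at most 59 in any library, so changes in these genes are known least well.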
